A study of Macaca fascicularis with 3 samples.

Results

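The cholesterol biosynthesis genes described here were 7 of the 26017 features counted in each library: HMGCS1, MVD, IDI1, FDFT1, SQLE, DHCR7 and INSIG1. They were taken by symbol from the feature lists, and all 7 were found. The study made female germ cells from embryonic stem cells of the cynomolgus monkey (Macaca fascicularis) and grew them in reconstituted ovaries, called xrOvaries, with ovarian somatic cells of mouse embryos. Single-cell RNA was sequenced from 3 such cultures with a 10x Genomics 3' kit, which counts unique molecular identifiers (UMIs), one per captured RNA molecule. All germ cells came from 1 line, 15XRi-AGVT#7, labelled wildtype and carrying the reporters TFAP2C-EGFP (early germ cells) and DDX4-tdTomato (later germ cells). The mouse embryos were at E13.5 (a stage in embryonic days) in one library, E14.5 in another and E15.5 in the last. Monkey cells carrying a reporter signal were sorted apart from mouse cells without one and the sorted fractions were mixed before capture, so the ratio of the species in a library was set by the experimenters.

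Cells make cholesterol from acetyl-CoA in a long chain of enzymes. HMGCS1 forms HMG-CoA, the precursor of mevalonate, and MVD and IDI1 later yield the activated isoprene units. FDFT1 joins farnesyl diphosphate into squalene, SQLE carries out the first oxygenation on the way to sterols, and DHCR7 carries out the last reduction of one route to cholesterol. The transcription factors SREBF1 and SREBF2 (SREBPs) switch these genes on when sterols are scarce, and INSIG1, itself an SREBP target, holds the SREBP escort SCAP in the endoplasmic reticulum when sterols are plentiful. Germ cells need sterols for membranes, and mammalian oocytes obtain much of their cholesterol from the surrounding somatic cells.

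Barcodes were called monkey germ cells when 2 to 20% of their UMIs lay in the 13 mitochondrially encoded genes and they held at least 10000 UMIs. This gave 537, 536 and 1113 germ barcodes in the E13.5, E14.5 and E15.5 libraries, of 2807, 1565 and 3455 in all. Barcodes under 1% mitochondrial UMIs with at least 1000 UMIs were taken as mouse somatic cells (1643, 717 and 1739). Germ barcodes fell into states by 3 genes: POU5F1, a pluripotency factor kept in early oogonia, STRA8, which marks cells about to enter meiosis, and SYCE3, a synaptonemal complex gene of meiotic prophase. The 433 POU5F1-high barcodes were the top 20% (from 3.29 UMIs per 10000), the 234 STRA8-positive ones held at least 1 UMI of STRA8 per 10000, and the 128 SYCE3-high ones were the top 6% (from 4.58 per 10000). The highest barcodes outside these limits stood at 3.24 for POU5F1, 0.996 for STRA8 and 4.53 for SYCE3. The remaining 1387 barcodes were in none of the 3 states and are called unmarked below. Left out were 4 barcodes that met the POU5F1 rule and another one. A further 7 met both the SYCE3 and the STRA8 rule and were counted as SYCE3-high.

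The median depth was 43003 to 55620 UMIs per germ barcode and 5325 to 6699 per mouse barcode. The 9 early oogonia markers, POU5F1 among them, summed to 2719 to 3201 CPM (counts per 1000000 UMIs) in POU5F1-high sums. In SYCE3-high sums they came to only 38.9 to 63.0 CPM, while 8 meiotic prophase genes, SYCE3 among them, summed to 2233 to 2842. Genes that define the states made up much of this. POU5F1 alone was at 1256 to 1623 CPM in POU5F1-high sums and SYCE3 at 1122 to 1235 in SYCE3-high sums. Outside the state rules, NANOG was at 256 to 306 CPM in POU5F1-high and at most 2.68 in SYCE3-high sums. SYCP1 was at most 2.04 CPM in POU5F1-high and at 95.9 to 222 in SYCE3-high sums. The label early oogonia, given to all 3 samples, was thus matched by the POU5F1-high and not the SYCE3-high barcodes, in part through the rules themselves. Between 199 and 643 barcode sequences occurred in both libraries of a pair. They included 669 of the 2186 germ barcodes, but none was a germ barcode in both. The copies were mostly shallow (median 657 to 1191 UMIs, highest 16700). Sharing was uneven: it touched 8 of 433 POU5F1-high, 479 of 1387 unmarked, 92 of 234 STRA8-positive and 88 of 128 SYCE3-high barcodes. UMIs of 9 mouse somatic genes, such as INHA and COL1A1, summed to 23.3 to 56.3 CPM in POU5F1-high, 51.7 to 94.1 in unmarked and STRA8-positive, and 97.8 to 161 in SYCE3-high sums, against 3538 to 4499 in mouse barcodes. No doublet caller was run.

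Over all germ barcodes the 7 genes were detected in every library, at levels less than 2-fold apart. The mix of states differed between the libraries, with 64 of 537, 129 of 536 and 240 of 1113 germ barcodes POU5F1-high. HMGCS1 lay between 11.3 and 12.9 CPM. Mean levels were 11.5 CPM ± 1.68 (SD, n = 3 libraries) for MVD, 42.9 ± 3.46 for IDI1, 65.6 ± 3.77 for FDFT1, 31.2 ± 1.78 for SQLE, 7.61 ± 1.51 for DHCR7 and 19.7 ± 0.689 for INSIG1. For each state the UMIs were summed per library, giving 12 sums, and states were compared with edgeR's quasi-likelihood test with the library as a block. Its p-values were adjusted by Benjamini-Hochberg over 14627 genes, and a gene was called at an adjusted p under 0.05. The 3 libraries served as the repeats although their mouse cells differed in stage and nothing states separate germ cell inductions. With the library as a block, the p-values rest on how far differences between states varied among these libraries. That spread was not taken from each gene alone, since edgeR draws it towards a trend over all tested genes.

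**Figure D1:**
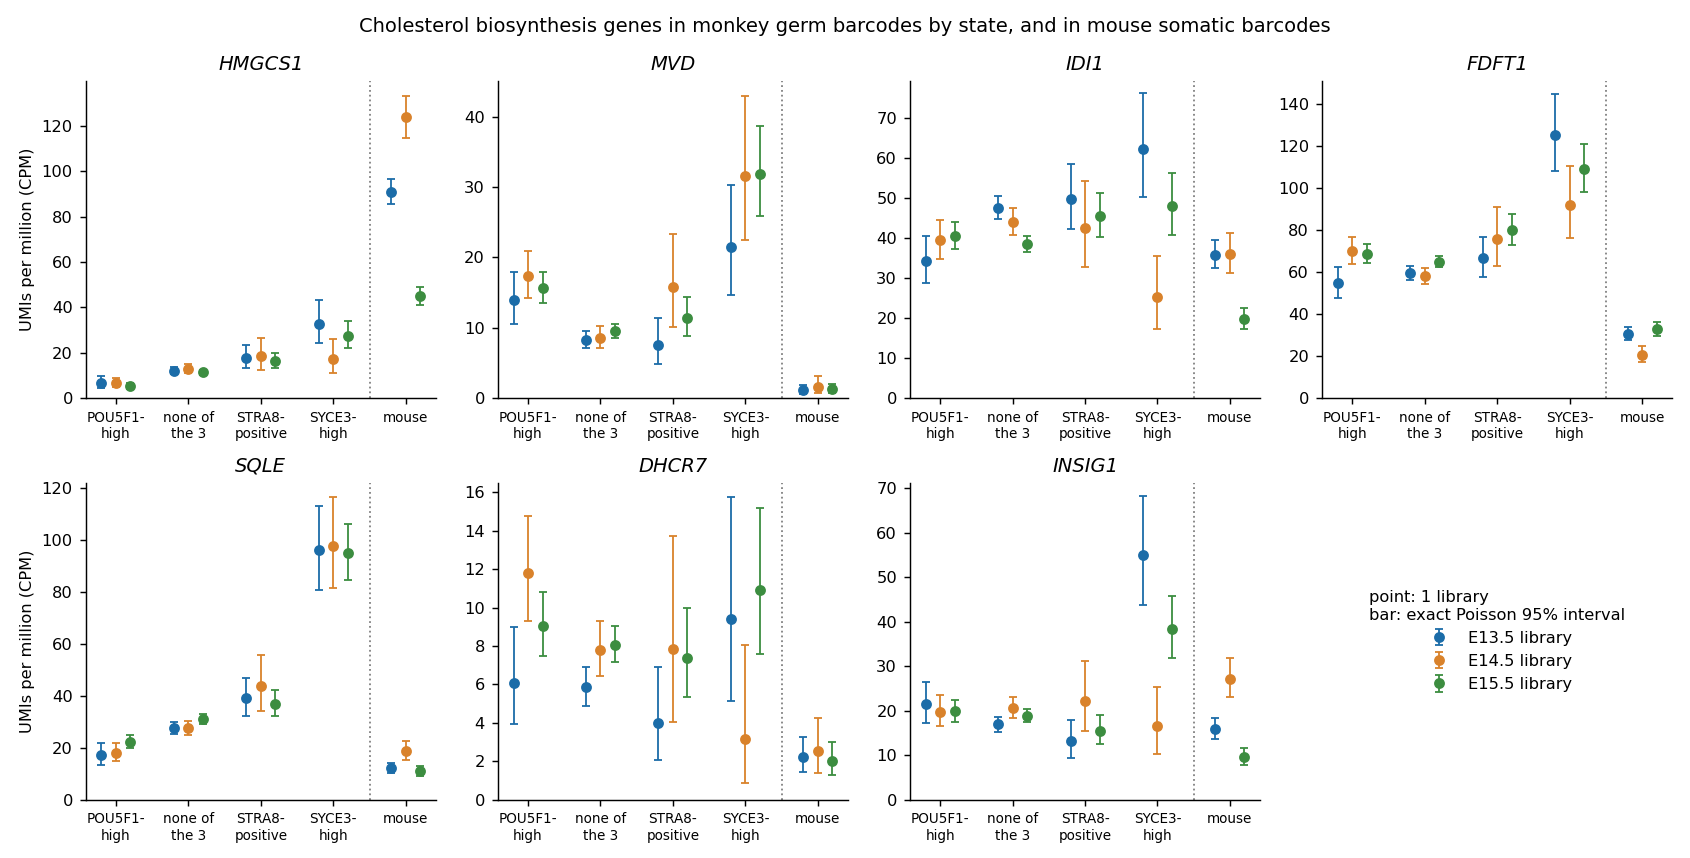
Level of each of the 7 genes (CPM, linear axes from 0) by germ state and in mouse somatic barcodes; each point is 1 library and each bar its exact Poisson 95% interval, which covers counting error only. SQLE rises from about 17 to 22 CPM in POU5F1-high to 94.8 to 97.8 CPM in SYCE3-high sums. The SYCE3-high levels of IDI1, DHCR7 and INSIG1 overlap those of each other germ state.

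The SYCE3-high barcodes, in meiotic prophase by their marker genes, held more SQLE, MVD, HMGCS1, FDFT1 and INSIG1 than the STRA8-positive barcodes, and no more IDI1 or DHCR7 that the test could call. These 5 of 7 calls stood against 25% of all tested genes called higher in this comparison (50.4% in either direction), so a call alone says little here and the sizes matter more. Without overlap between the libraries of the states, 3 of the 7 (SQLE, MVD and FDFT1) were higher in CPM, as were 26.4% of all genes. The median log2 fold change of the 7 genes was 0.58, beside -0.03 over all tested genes. The same 5 genes were called higher against the unmarked barcodes, a contrast added after the levels had been seen, where 28.3% of all genes were called higher and 57.1% in either direction. Against unmarked barcodes 4 of the 7, the same 3 and HMGCS1, were higher without overlap, beside 30.7% of all genes. There the median was 0.92 for the 7 genes and -0.03 for all tested genes.

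SQLE, the squalene epoxidase, showed the most even rise. Its SYCE3-high level was 95.9, 97.8 and 94.8 CPM in the E13.5, E14.5 and E15.5 libraries, against 39.0, 43.9 and 37.0 in STRA8-positive and 27.6, 27.6 and 31.0 in unmarked sums. No library of one state overlapped another, and the 3 SYCE3-high values lay within a few CPM of each other. The edgeR log2 fold change was 1.25 (SE 0.12, adjusted p = 8.97e-08) over STRA8-positive and 1.65 (SE 0.11, adjusted p = 2.11e-10) over unmarked barcodes. All 21 alternative settings kept both calls. Of barcodes thinned to 10000 UMIs each, 63.6% (exact 95% interval 45.1 to 79.6), 59.4% (40.6 to 76.3) and 68.3% (55.3 to 79.4) of the SYCE3-high ones held a UMI of SQLE, compared with 24.3%, 22.3% and 26.3% of the unmarked ones and 12.2%, 13.2% and 11.7% of mouse barcodes deep enough to thin. Without thinning the SYCE3-high shares were 90.9%, 87.5% and 98.4%.

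MVD, which decarboxylates mevalonate diphosphate, stood at 21.5, 31.5 and 31.8 CPM in SYCE3-high sums. STRA8-positive sums held 7.61, 15.7 and 11.3, and unmarked sums 8.22, 8.57 and 9.47. The SYCE3-high libraries were all above every STRA8-positive and unmarked library. By edgeR the log2 fold change was 1.33 (SE 0.20, adjusted p = 2.10e-05) over STRA8-positive and 1.60 (SE 0.17, adjusted p = 1.93e-07) over unmarked barcodes.

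FDFT1, the squalene synthase, reached 125, 92.3 and 109 CPM in SYCE3-high sums, compared with 66.8, 76.0 and 80.1 in STRA8-positive and 59.5, 58.1 and 65.0 in unmarked sums. Again the ranges did not overlap, though the gap to STRA8-positive was narrow in the E14.5 library. In edgeR its log2 fold change was 0.51 (SE 0.13, adjusted p = 0.0027) over STRA8-positive and 0.76 (SE 0.12, adjusted p = 2.09e-05) over unmarked barcodes. Without the E13.5 library the first call was lost (log2 fold change 0.33, adjusted p = 0.0606).

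HMGCS1, at the entry to the mevalonate pathway, was at 32.9, 17.3 and 27.4 CPM in SYCE3-high, 17.9, 18.3 and 16.2 in STRA8-positive and 12.1, 12.9 and 11.3 in unmarked sums. SYCE3-high was above unmarked in every library, but in the E14.5 library it was no higher than STRA8-positive. The edgeR log2 fold change over STRA8-positive was 0.58 (SE 0.20, adjusted p = 0.021), and this call was lost without E13.5 (0.45, adjusted p = 0.169) or without E15.5 (0.49, adjusted p = 0.214). Over unmarked barcodes it was 1.06 (SE 0.18, adjusted p = 4.79e-05). With SYCE3-high narrowed to the top 3%, which only the E15.5 library filled with at least 20 barcodes, the HMGCS1 log2 fold change was -0.43 over STRA8-positive and 0.06 over unmarked barcodes, with adjusted p = 0.357 and 0.924.

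INSIG1, the sterol sensor and SREBP target, was uneven between libraries. Its SYCE3-high level was 55.0, 16.6 and 38.4 CPM, against 13.2, 22.3 and 15.47 in STRA8-positive and 16.9, 20.7 and 18.8 in unmarked sums. In the E13.5 and E15.5 libraries SYCE3-high lay above the other states, and in E14.5 it lay below both. The pooled log2 fold change by edgeR was 1.18 (SE 0.26, adjusted p = 9.29e-04) over STRA8-positive and 0.92 (SE 0.22, adjusted p = 0.00133) over unmarked barcodes, higher in 2 of 3 libraries each. It was 1.54 and 1.21 without E14.5. Without E13.5 it was 0.76 and 0.53, and the call against unmarked barcodes was lost (adjusted p = 0.0592).

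IDI1, the isopentenyl diphosphate isomerase, stood at 62.4, 25.2 and 48.0 CPM in SYCE3-high and 47.7, 44.1 and 38.6 in unmarked sums, and the test called no difference (log2 fold change 0.01, SE 0.17, adjusted p = 0.96 by edgeR). DHCR7, the last reductase, was at 9.39, 3.15 and 10.9 CPM in SYCE3-high and 5.85, 7.77 and 8.07 in unmarked sums (log2 fold change 0.14, SE 0.29, adjusted p = 0.693). Their SEs were wide enough that a change of modest size in either direction could not be resolved, and only 4 UMIs of DHCR7 lay behind the E14.5 value.

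The E14.5 SYCE3-high sum of 32 barcodes was the lowest of the 3 for HMGCS1, IDI1, FDFT1, DHCR7 and INSIG1, and the highest for SQLE. It also differed in other genes. SPO11, the nuclease that opens meiotic breaks, was at 71.8 CPM there and at 20.8 and 46.8 in the E13.5 and E15.5 SYCE3-high sums, and SYCP1 at 222 against 95.9 and 166. The immediate early gene EGR1 was at 116 CPM against 523 and 234, and JUNB at 62.3 against 276 and 153. In the unmarked sums EGR1 was 85.1 to 124 CPM and JUNB 60.9 to 63.2, whereas mouse barcodes held 1877 to 2517 CPM of EGR1 and 1684 to 2905 of JUNB. The part of immediate early genes, of mouse RNA and of shared barcodes in these levels was not tested. When the 313 germ barcodes with at least 1 UMI per 10000 of the 9 mouse genes were left out, the log2 fold changes over unmarked barcodes were 1.61 for SQLE, 1.61 for MVD, 1.14 for HMGCS1, 0.86 for FDFT1 and 0.86 for INSIG1, all still called. Leaving out shared barcodes left a SYCE3-high sum in E14.5 alone (23 barcodes), where SQLE (1.86) and MVD (1.76) were still called over unmarked barcodes and HMGCS1 (0.51), FDFT1 (0.52) and INSIG1 (-0.17) were not.

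**Figure D2:**
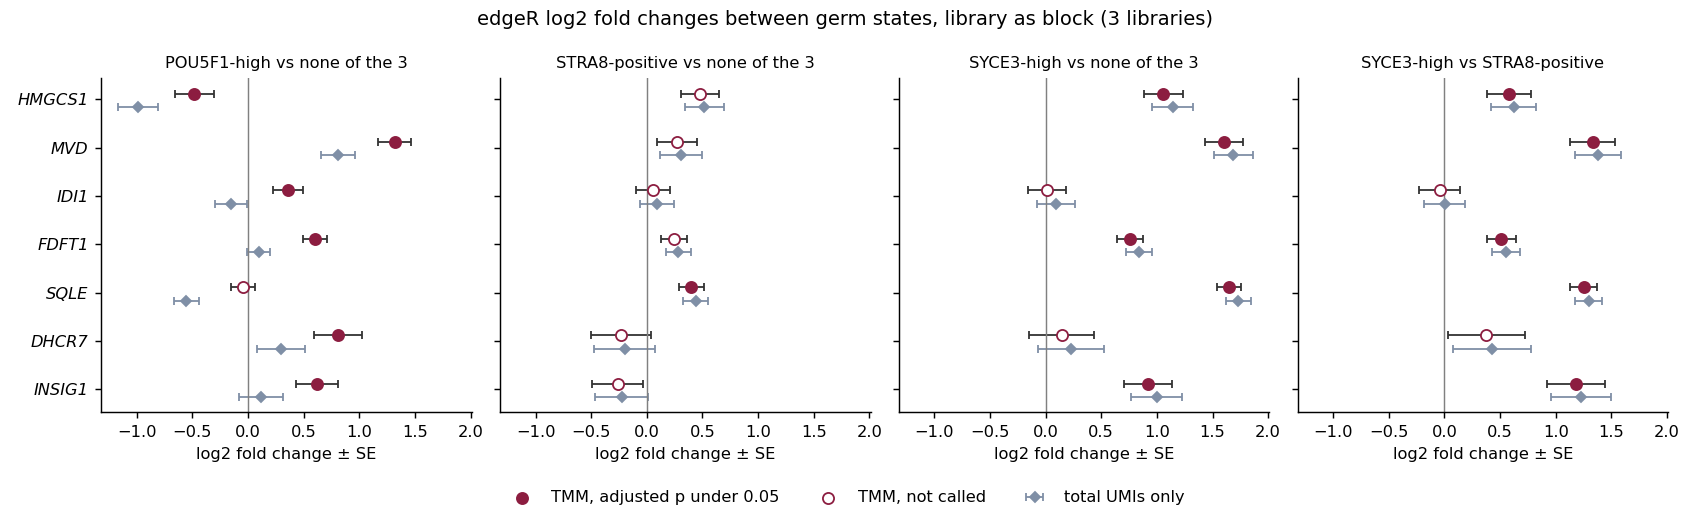
edgeR log2 fold changes of the 7 genes (horizontal axis, error bars 1 SE) in 4 comparisons of germ states over 3 libraries; circles use TMM scaling, filled where the adjusted p was under 0.05, and diamonds use total UMIs only. SQLE and MVD sit near 1.6 in SYCE3-high over the unmarked barcodes on TMM scaling, and the scalings lie within 0.1 of each other except in the POU5F1-high panel, where all diamonds lie about 0.5 to the left.

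Early oogonia-like POU5F1-high barcodes had their own pattern: more MVD and less HMGCS1 than unmarked barcodes under both scalings of the libraries. For the other 5 genes the answer depended on the scaling. The HMGCS1 call was lost under some other settings, named below. By TMM, which assumes that most genes do not change, MVD, DHCR7, INSIG1, FDFT1 and IDI1 were called higher and HMGCS1 lower, against backgrounds of 33.2% of all genes called higher and 35.2% lower (68.5% in either direction). With total UMIs, MVD alone was called higher and HMGCS1 and SQLE lower (3 of 7), where 75.5% of all genes were called in either direction and 60% were called lower. In counts, 4860 genes were called higher and 5156 lower by TMM, and 2271 and 8778 with total UMIs. The median of all tested genes was -0.03 by TMM and -0.54 with total UMIs, and the median of the 7 genes was 0.60 and 0.09, so the median of the 7 lay above that of all genes in both. HMGCS1 and SQLE lay below the median of all genes under both scalings. Ribosomal protein genes took 25.8 to 29.8% of UMIs in POU5F1-high and 15.1 to 16.9% in unmarked sums, and the 100 most abundant genes 39.5 to 42.4% and 25.9 to 28.4%.

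MVD was at 13.9, 17.4 and 15.6 CPM in POU5F1-high against 8.22, 8.57 and 9.47 in unmarked sums. All 3 POU5F1-high libraries were above all unmarked ones, as for 15% of all genes, with a log2 fold change of 1.32 (SE 0.15, adjusted p = 1.92e-07) by edgeR with TMM and 0.81 with total UMIs (adjusted p = 9.34e-05). HMGCS1 was at 6.57, 6.66 and 5.28 CPM against 12.1, 12.9 and 11.3, with no overlap (58.1% of all genes were lower in this way, among them SQLE of the 7). Its log2 fold change was -0.48 (SE 0.18, adjusted p = 0.0208) by edgeR with TMM and -0.99 (adjusted p = 6.15e-05) with total UMIs. The TMM call for HMGCS1 was held by 14 of 21 alternatives, and without the E15.5 library it was lost (-0.38, adjusted p = 0.214). It was also lost after thinning, without the barcodes that held mouse genes, and without shared barcodes. A narrower POU5F1 limit, a wider SYCE3 limit or a looser STRA8 limit lost it as well. HMGCS1 was at 45.0 to 124 CPM in mouse barcodes. Mouse somatic genes summed to 23.3 to 56.3 CPM in POU5F1-high and 61.2 to 94.1 in unmarked sums. The part of mouse RNA in this difference was not tested.

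SQLE stood at 17.3, 18.1 and 22.2 CPM in POU5F1-high sums, below every unmarked library on the CPM scale, and its log2 fold change was -0.05 by TMM (adjusted p = 0.703, edgeR) but -0.56 with total UMIs (adjusted p = 1.82e-04). FDFT1 was at 54.8, 70.2 and 68.9 CPM and overlapped the unmarked sums, with a TMM log2 fold change of 0.60 (adjusted p = 5.63e-05) that was 0.09 and not called with total UMIs. DHCR7 (6.09, 11.8 and 9.05 CPM) and INSIG1 (21.4, 19.8 and 19.8 CPM) likewise overlapped the unmarked levels. Their log2 fold changes of 0.81 and 0.62 by TMM were 0.30 and 0.11, not called, with total UMIs. IDI1 (34.3, 39.5 and 40.6 CPM) changed sign, from 0.36 (adjusted p = 0.0275, edgeR, higher in 2 of 3 libraries) to -0.15 (adjusted p = 0.326). Without the E15.5 library the TMM calls of INSIG1 (adjusted p = 0.0705) and IDI1 (adjusted p = 0.339) were lost.

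STRA8-positive barcodes, at the approach to meiosis, were close to unmarked ones in the 7 genes. Unmarked sums still held 19.2 to 27.4 CPM of STRA8, against 150 to 176 in STRA8-positive sums. Their 8 marker genes of G2 and M phase summed to 2073 to 2607 CPM, against 1231 to 1385 in STRA8-positive sums. The part of the cell cycle in this comparison was not tested. SQLE was the only member called, with a log2 fold change of 0.40 (SE 0.11, adjusted p = 0.0375 by edgeR) and higher in 3 of 3 libraries, where 2.43% of all genes were called higher and 4.07% lower (6.5% in either direction). This call was held by 9 of 21 alternatives and was lost when any 1 library was left out (E13.5: adjusted p = 0.212, E14.5: 0.166, E15.5: 0.144). HMGCS1, FDFT1 and SQLE were higher in every STRA8-positive than in every unmarked library (3 of 7, beside 14.9% of all genes). For HMGCS1, though, the log2 fold change of 0.48 did not pass (SE 0.17, adjusted p = 0.104). The other 5 genes had log2 fold changes between -0.26 and 0.27 and were not called.

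Set against POU5F1-high, STRA8-positive barcodes held more HMGCS1 (log2 fold change 0.96, adjusted p = 3.66e-04) and SQLE (0.45, adjusted p = 0.00369), and less MVD (-1.05, adjusted p = 5.62e-05), by edgeR and under both scalings. This comparison was also added after levels had been seen. DHCR7 (-1.04), INSIG1 (-0.88) and FDFT1 (-0.36) were called lower by TMM but not with total UMIs, where FDFT1 was at 0.19. By TMM 34% of all genes were called higher and 33.3% lower (67.3% in either direction), and with total UMIs 56% and 16.2%. In CPM, HMGCS1, IDI1 and SQLE were higher without overlap, as were 54.2% of all genes. Without the E13.5 library the SQLE call was lost (0.36, adjusted p = 0.0572) and IDI1 was called lower (-0.43, adjusted p = 0.038). Without E14.5 that of FDFT1 was lost (adjusted p = 0.0818), and without E15.5 those of FDFT1 (adjusted p = 0.064) and INSIG1 (adjusted p = 0.0602).

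Between the ends of the range, SYCE3-high and POU5F1-high barcodes, SQLE and HMGCS1 were higher in SYCE3-high under both scalings. The log2 fold changes were 1.70 (SE 0.12, adjusted p = 1.47e-10) and 1.54 (SE 0.21, adjusted p = 1.66e-06) by edgeR with TMM, and 2.29 and 2.13 with total UMIs. MVD, which was high in both states, differed by 0.29 (SE 0.17, adjusted p = 0.143). In CPM 4 of the 7 (HMGCS1, MVD, FDFT1 and SQLE) were higher without overlap, beside 51.3% of all genes. Of all genes 37.2% were called higher and 35.3% lower by TMM (72.4% in either direction), and 55.7% and 19.4% with total UMIs, where MVD, FDFT1 and INSIG1 were also called higher (5 of 7). Without E14.5, FDFT1 (0.32, adjusted p = 0.0337) and INSIG1 (0.56, adjusted p = 0.00969) were called by TMM as well, and without E13.5, IDI1 (-0.65, adjusted p = 0.00495) and DHCR7 (-0.91, adjusted p = 0.0228) were called lower.

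Because HMGCS1 moved with the limit set on SYCE3, the germ barcodes that were not POU5F1-high were also divided into 5 ranges of SYCE3, chosen after seeing that, and described without a test. Levels were summed over the libraries. SQLE rose at every step, from 27.1 CPM in the 1079 barcodes under 1 UMI of SYCE3 per 10000, to 32.4 (387 barcodes), 51.7, 82.9 (64 barcodes, the lower part of SYCE3-high) and 111 CPM in the 64 barcodes of the top 3%. MVD followed with 7.97, 9.93, 16.7, 17.5 and 43.2 CPM. HMGCS1 instead climbed from 10.4 to 13.9, 26.6 and 37.2 CPM and stood at 14.0 (exact 95% interval 9.92 to 19.2) in the top range.

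This lower top value of HMGCS1 was seen in each library. From the fourth range to the top one it went from 41.8 to 20.6 CPM in E13.5, from 26.8 to 8.94 in E14.5 and from 38.4 to 13.49 in E15.5, with 13, 6 and 19 UMIs behind the top values and 16, 18 and 30 barcodes. FDFT1 went from 55.6 through 73.2, 103 and 118 to 99.6 CPM, and IDI1 stayed between 40.4 and 54.9. INSIG1 depended on the library in the top range, at 88.8, 19.4 and 41.9 CPM. Mouse somatic genes summed to 75.0, 79.7, 93.1, 183 and 88.5 CPM along the ranges and JUNB to 54.4, 65.7, 105, 195 and 128, so both were highest in the range where HMGCS1 was. HMGCS1 was also the member with the highest level in mouse barcodes relative to germ barcodes, and the part of mouse RNA in its course was not tested.

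**Figure D3:**
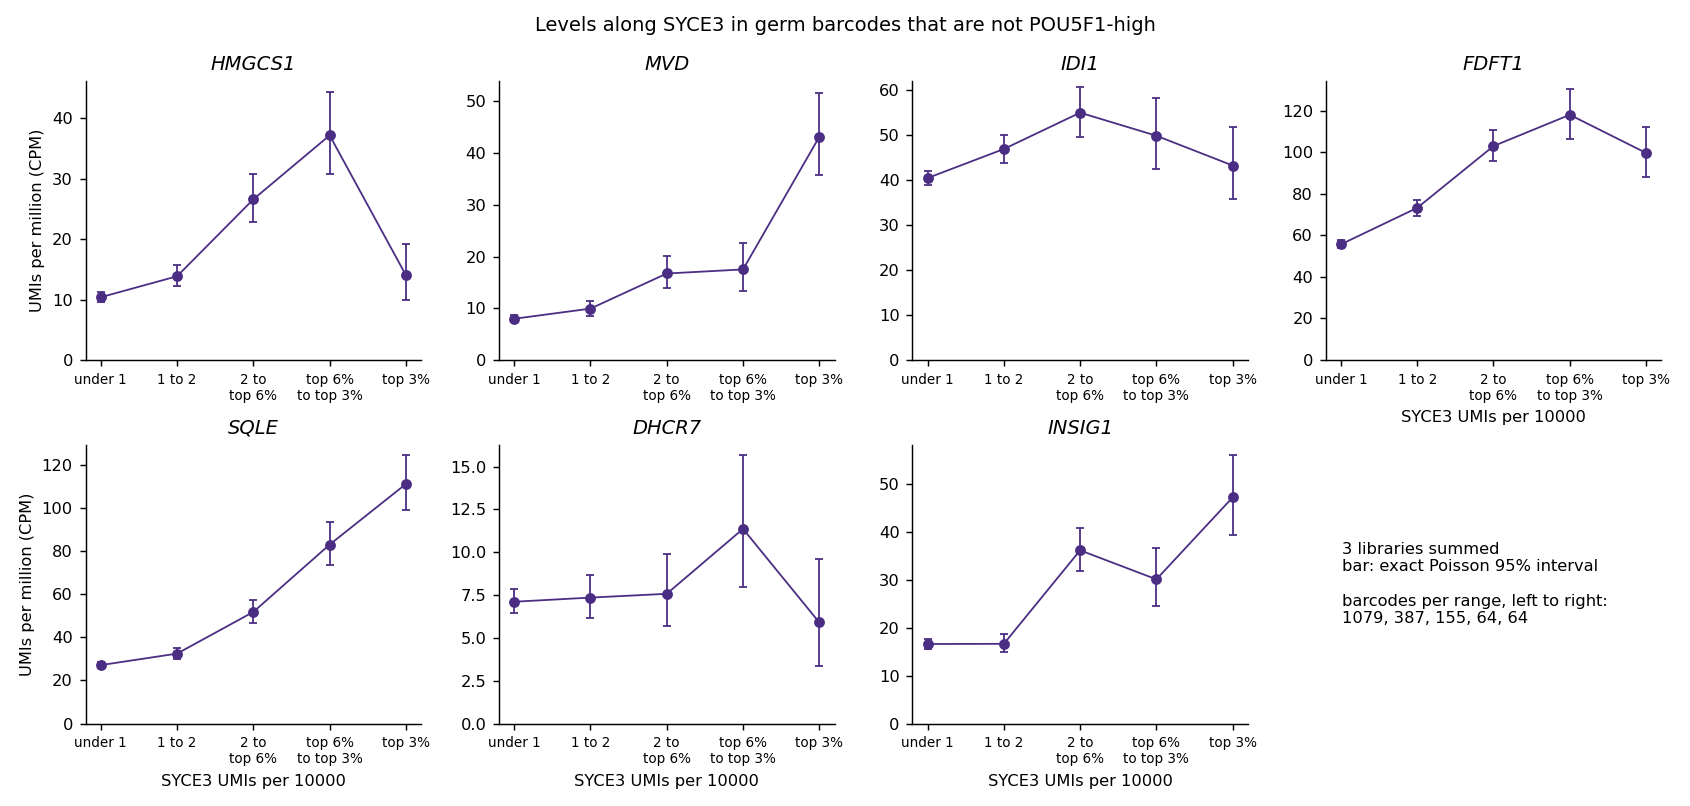
Levels of the 7 genes (CPM, linear axes from 0) in 5 ranges of SYCE3 UMIs per 10000 among germ barcodes that are not POU5F1-high, 3 libraries summed; bars are exact Poisson 95% intervals. SQLE and MVD are highest in the top range at 111 and 43.2 CPM, whereas HMGCS1 peaks at 37.2 CPM one range below.

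Other genes of the pathway were taken from lists of 22 synthesis enzymes and 13 SREBP control genes and targets, of which 15 and 12 were tested and not among the 7. In SYCE3-high over unmarked barcodes, 7 of the other 15 enzymes rose and 5 fell by edgeR (28.3% and 28.8% of all genes), with a median of 0.16. TM7SF2, a sterol reductase, was at 73.8, 59.1 and 63.6 CPM in SYCE3-high against 11.5, 13.02 and 12.7, with a log2 fold change of 2.32 (adjusted p = 2.19e-10). LSS, which closes the sterol rings, rose by 0.75, CYP51A1 by 0.66, MSMO1 by 0.36 and FDPS by 0.30, all called. The mevalonate kinases MVK and PMVK were called lower, as were LBR, SC5D and FAXDC2, the last with 1 UMI in all SYCE3-high sums together.

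On the control side SREBF1 was at 22.1, 11.04 and 15.0 CPM in SYCE3-high and 5.76, 6.64 and 5.12 in unmarked sums (log2 fold change 1.39, adjusted p = 1.20e-04 by edgeR). SREBF2 rose by 0.68 (adjusted p = 0.00123), and 5 of the 13 genes in this list, INSIG1 included, were called higher and 2 lower. APOE, which carries lipids between cells, was at 1095 to 1347 CPM in unmarked and 224 to 237 in SYCE3-high sums (log2 fold change -2.49, adjusted p = 4.49e-13). The exporter ABCA1 fell by 1.66 and the fatty acid elongase ELOVL6 was at 4.73 to 14.8 CPM against 51.2 to 61.6. Of 10 fatty acid synthesis genes, 5 were called higher and 5 lower, and of 8 genes of the isoprenoid side branches none rose and 4 fell. Of all genes 28.3% were called higher and 28.8% lower in this comparison (57.1% in either direction), so a call alone says little.

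Relative to STRA8-positive barcodes, 2 of the other 15 enzymes rose in SYCE3-high (TM7SF2 and FDPS) and 5 fell (25% and 25.3% of all genes), with a median of -0.02 by edgeR. SREBF1 was higher by 1.61 (adjusted p = 3.26e-04), and APOE (-1.86) and ELOVL6 (-1.99) were lower. LSS, CYP51A1, MSMO1 and SREBF2 were not called. In STRA8-positive over unmarked barcodes 3 of the other 15 enzymes were called higher, CYP51A1, TM7SF2 and MSMO1, and none lower, beside 2.43% and 4.07% of all genes. LIPA, the lysosomal lipase, was at 34.1, 30.8 and 34.5 CPM in STRA8-positive sums against 20.5, 16.5 and 21.5.

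In POU5F1-high barcodes other steps were higher. MSMO1, a sterol demethylase, was at 57.5, 56.4 and 51.4 CPM against 30.3, 31.8 and 31.9 in unmarked sums, with a log2 fold change of 1.32 by TMM and 0.81 with total UMIs by edgeR, called under both. CYP51A1 was lower under both (-0.52 and -1.03), while FDPS, SREBF1 and SREBF2 were called higher by TMM only, and LSS was not called by TMM. Of the other 15 enzymes 8 were called higher and 3 lower by TMM, beside 33.2% and 35.2% of all genes. With total UMIs 3 were higher and 6 lower, beside 2271 of the 14627 genes higher and 60% lower. Of the cholesterol exporters, ABCG1 was at 50.1 to 68.3 CPM in POU5F1-high and at most 0.864 in unmarked sums (log2 fold change 6.84), and ABCA1 at 101 to 119 against 17.4 to 18.7 (3.10). The receptor LRP8 had the opposite pattern, with at most 0.243 CPM in POU5F1-high and 3.19 to 4.32 in unmarked sums.

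**Figure D4:**
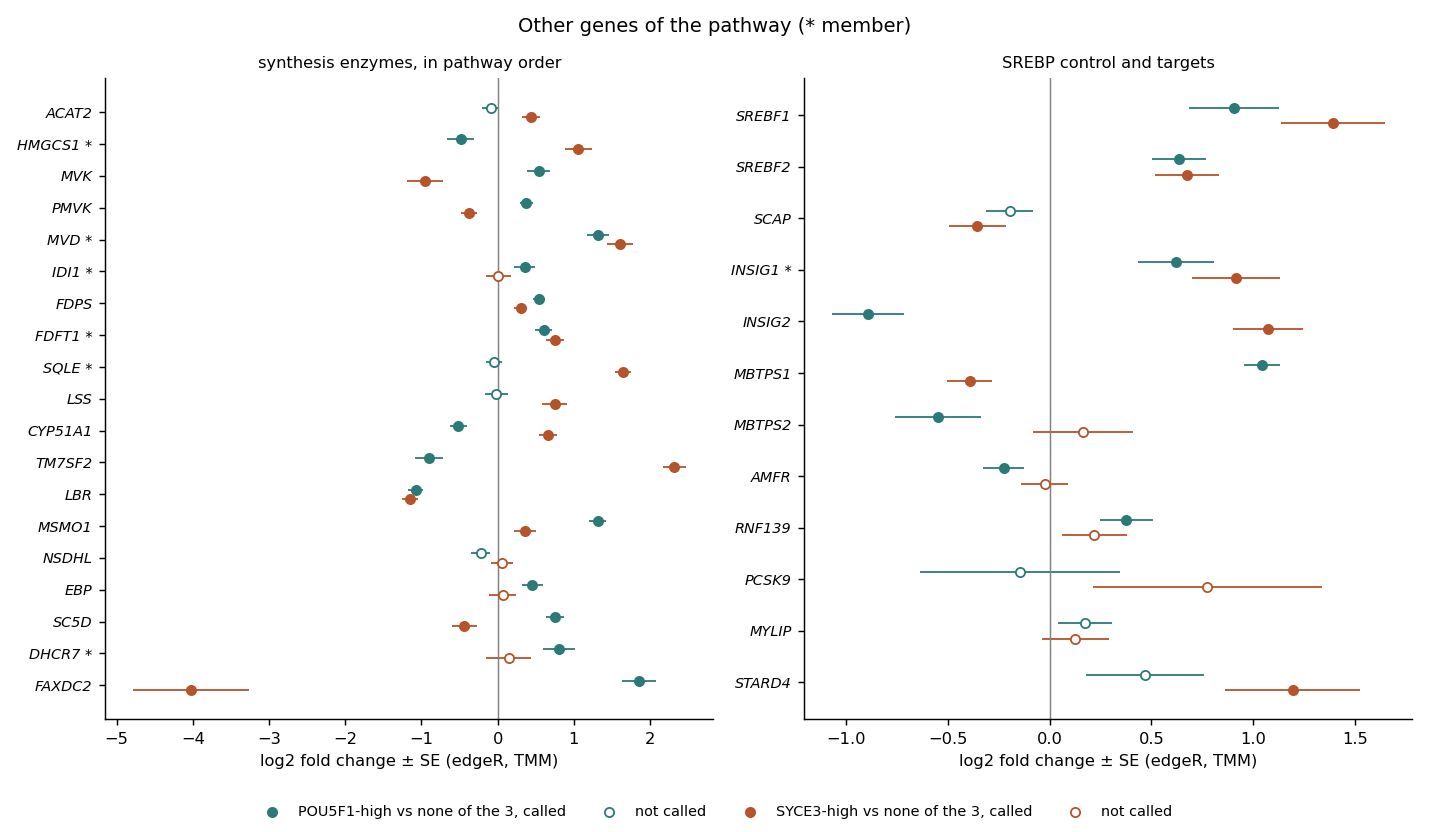
edgeR log2 fold changes (TMM scaling, error bars 1 SE) of tested synthesis enzymes in pathway order and of SREBP control genes (some genes of the lists are not shown), for POU5F1-high and SYCE3-high barcodes each against unmarked ones; stars mark the 7 genes and filled points an adjusted p under 0.05. MSMO1 is higher in POU5F1-high, at 1.32, and TM7SF2 at 2.32 and SQLE at 1.65 are the highest enzymes in SYCE3-high.

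Between libraries, over all germ barcodes, none of the 7 genes differed 2-fold (with at least 20 CPM in 1 library), where 0.256% of genes were higher and 0.242% lower in E14.5 than in E13.5, 0.053% and 0.185% in E15.5 than in E13.5, and 0.135% and 0.189% in E15.5 than in E14.5. HMGCS1, MVD and DHCR7 were under 20 CPM in every library and could not pass this rule. INSIG1 could not pass it between E13.5 and E15.5 (18.97 and 19.8 CPM). With 1 library per mouse stage there was no test. Ratios between libraries are log2 ratios of CPM + 1, while their exact intervals were computed from the counts without the added 1. The widest ratios were those of DHCR7, 5.87 CPM in E13.5 against 8.59 in E14.5 (log2 ratio 0.48, exact 95% interval 0.26 to 0.84) and 8.38 in E15.5 (0.45). MVD was at 9.53, 12.5 and 12.3 CPM and IDI1 at 46.8, 41.8 and 40.2. Within SYCE3-high barcodes 3 ratios passed the rule: IDI1 in E14.5 over E13.5 (-1.27), and INSIG1 in E14.5 over E13.5 (-1.67) and in E15.5 over E14.5 (1.16). DHCR7 was at -1.32 in E14.5 over E13.5 and 1.52 in E15.5 over E14.5. It stayed under 20 CPM, with 4 UMIs in E14.5, so the rule did not count it. By this rule 4.34% of genes were lower and 1.13% higher in E14.5 than in E13.5, 2.98% higher and 0.558% lower in E15.5 than in E14.5, and 0.817% higher and 1.02% lower in E15.5 than in E13.5.

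Mouse somatic barcodes gave a contrast of identity but not of size, because reads of mouse cells were counted only where they mapped to a monkey gene. HMGCS1 was at 91.0, 124 and 45.0 CPM there, above every germ sum. MVD was nearly absent (1.12, 1.62 and 1.23 CPM) and DHCR7 low (2.23, 2.52 and 2.02). IDI1 was at 35.9, 36.0 and 19.8 CPM, FDFT1 at 30.7, 20.7 and 32.8, SQLE at 12.03, 18.6 and 10.98 and INSIG1 at 15.98, 27.2 and 9.57. HMGCS1 (log2 ratio -1.44) and INSIG1 (-1.42) were lower in E15.5 than in E14.5 mouse barcodes past 2-fold, as were 1.41% of genes, while 4.79% were higher. The supporting cell markers summed to 2599 to 2979 CPM in these barcodes, with INHA alone at 1306 to 1750. Stroma markers summed to 1662 to 2498 CPM and germ cell markers to 27.0 to 48.0.

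Across single germ barcodes the 7 genes varied together weakly. Among unmarked barcodes, 21, 21 and 20 of the 21 pairs had a Pearson r above 0 in the E13.5, E14.5 and E15.5 libraries (378, 332 and 677 barcodes), with medians of 0.16, 0.13 and 0.12. The same genes paired with all other genes of at least 20 CPM gave medians of 0.01, 0.01 and -3.79e-04. Of those pairs 53.3%, 53.9% and 49.8% were above 0, and their 95th percentiles were 0.15, 0.15 and 0.14. The pair of FDFT1 and SQLE, at 0.29, 0.25 and 0.23, was high in each library, and pairs with DHCR7 were mostly low. In POU5F1-high barcodes the median was 0.06 (E14.5) and 0.08 (E15.5). There 16 and 21 of the 21 pairs were above 0, beside 46.9% and 48.6% of pairs with other genes. The 95th percentiles of the latter were 0.17 and 0.13, above the medians of the 7 genes. In STRA8-positive ones (E15.5) the median was 0.11, with 17 of 21 pairs above 0, beside 50.3% and a 95th percentile of 0.16. These r values rest on sparse counts, share libraries and depth, and are given as a description only.

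**Figure D5:**
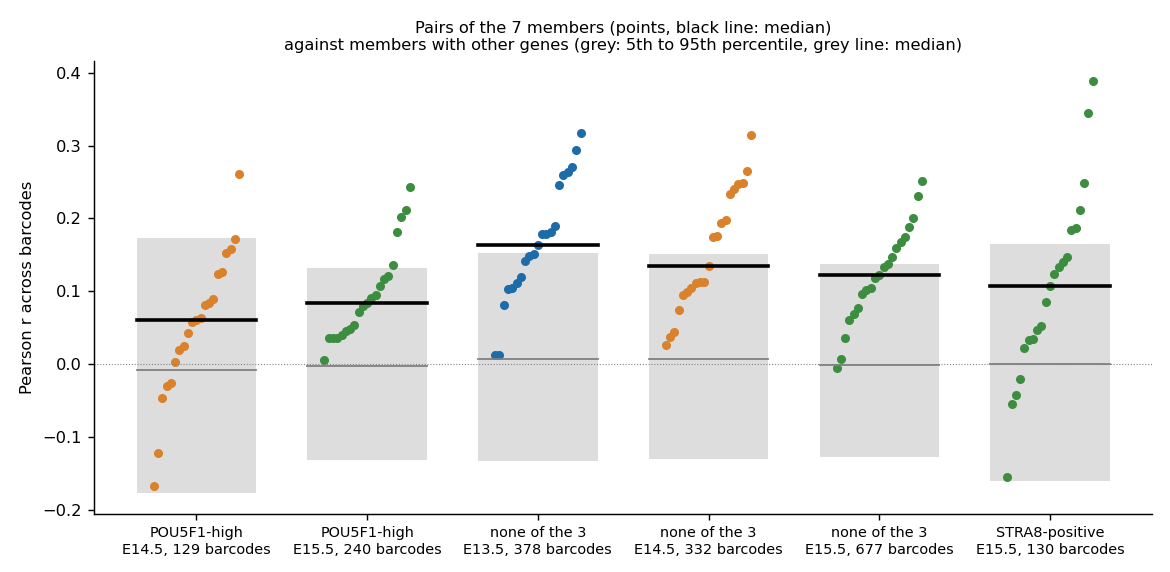
Pearson r across barcodes for the 21 pairs of the 7 genes (points, black line the median) in each state and library with at least 100 barcodes, beside the same genes with all other genes (grey band, 5th to 95th percentile, grey line the median). Pair medians lie between 0.06 and 0.16 while medians with other genes lie near 0.

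Over the 12 sums, the mean of the 7 standardised profiles followed FDFT1 and INSIG1 most and DHCR7 and IDI1 least, as r with the mean of the other 6 genes (0.89, 0.81, 0.25 and 0.34). Of 9410 ranked genes outside the 7, the profile was most like that of TMEM97 (r = 0.95), COG7 (0.93), JUNB (0.93), TTC8 (0.92) and SPON2 (0.92). TMEM97, a sterol-regulated membrane protein, was at 87.2, 51.3 and 91.1 CPM in SYCE3-high and 37.6, 41.5 and 48.7 in unmarked sums. The sums share libraries and the order of states, so these likenesses describe 12 points and carry no test.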

How the data were processed

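Per the file headers, the deposited matrices hold whole-number UMI counts per monkey gene and barcode, filtered by the authors with Cell Ranger 6.0.1. The genome build and annotation were not given in the sources used here, and no sequence or coordinate is printed. The 7 genes, the states, the lists and the comparisons were chosen with earlier results of these data known. Counts were summed per library and state (sums under 20 barcodes left out) and fitted in edgeR 4.0.16 (filterByExpr, TMM, quasi-likelihood test, library as block). DESeq2 1.42.0 was an alternative. The fit was tested on simulated counts. Named were the 7 genes, fixed pathway genes (some not reported here), in each comparison the 4 largest list changes with the same direction in all 3 libraries, and the 5 genes most like the 7; genes named beyond these (such as MVK, EGR1 or SPO11) were chosen after their values were seen. The comparisons of SYCE3-high with unmarked and of STRA8-positive with POU5F1-high, the total UMI scaling, the SYCE3 ranges and the settings that leave out barcodes with mouse genes, with EGR4 or PIWIL4, or shared between libraries were added after seeing the data. DHDDS, HBA1 and HSPA1A of the lists were not matched to a feature. Intervals are 95% and cover counting error only.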

Additional observations from a re-analysis of the deposited data

Results flagged for a closer look

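IDI1 moved in opposite directions in single libraries when SYCE3-high barcodes were set against the others, each with an exact 95% interval that excluded 0. On the scale of total UMIs its log2 ratio to POU5F1-high was 0.86 in the E13.5 library and -0.65 in E14.5. Its ratio to unmarked barcodes was 0.39 in E13.5, -0.81 in E14.5 and 0.32 in E15.5. The difference between libraries itself was not tested, since each has 1 library, and 32 UMIs lay behind the E14.5 SYCE3-high value.

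Barcodes outside the germ and mouse classes also held the 7 genes. Their summed level was 219.7 CPM in 66 barcodes with 1 to 2% mitochondrial UMIs, 168.8 CPM in 284 barcodes over 20%, and 200.9 CPM in 481 barcodes in the germ range but under 10000 UMIs. The germ barcodes of the 3 libraries lay at 187 to 195 CPM.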

How the results depend on the processing

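Of the recomputed log2 fold changes of the 7 genes, 734 kept direction and call, 44 changed sign but were called in neither setting, 63 lost and 28 gained a call, and 7 that were called in at least 1 setting reversed. IDI1 in POU5F1-high over unmarked barcodes was at -0.15 with total UMIs, and FDFT1 in STRA8-positive over POU5F1-high at 0.19 with total UMIs and 0.024 with STRA8 at 2 per 10000. HMGCS1 in SYCE3-high over STRA8-positive was at -0.43 with SYCE3 as the top 3%. Without shared barcodes INSIG1 in SYCE3-high was at -0.23 over STRA8-positive, -1.05 over POU5F1-high and -0.17 over unmarked. The cause was not tested.

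Counts below are genes called higher and lower. For POU5F1-high over unmarked (5 and 1 of the 7; 4860 and 5156 of all genes), thinning to 10000 UMIs gave 2 and 0, and 3150 and 3297; total UMIs gave 1 and 2, and 2271 and 8778; POU5F1 as the top 30% gave 3 higher; and 0 were lower with POU5F1 as the top 10%, SYCE3 as the top 12%, STRA8 at 1 UMI, without mouse RNA or without shared barcodes. Leaving out a library gave 3 to 5 higher and 0 to 1 lower.

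For STRA8-positive over unmarked (1 of the 7 higher; 356 and 595), the higher count was 0 with no filter, no library block, SYCE3 as the top 12%, POU5F1 as the top 30%, STRA8 at 1 UMI or 2 per 10000, without EGR4 or PIWIL4 barcodes, without shared barcodes, and without any 1 library (0 to 0), and 2 with POU5F1 as the top 10%. Over all genes there were 54 and 176 with no library block, 884 and 1219 with POU5F1 as the top 10%, 207 higher with the top 30%, 116 and 267 with STRA8 at 1 UMI, 24 and 70 at 2 per 10000, 179 and 289 thinned, 938 lower with no filter, and 32 to 206 and 140 to 454 without a library.

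For SYCE3-high over STRA8-positive (5 of the 7 higher; 3664 and 3706), there were 3 with SYCE3 as the top 3%, 2 with STRA8 at 2 per 10000, 2 thinned, 2 without shared barcodes and 3 to 5 without a library. All-gene counts were 1685 and 2032 with STRA8 at 2 per 10000, 2002 and 1956 thinned, 1478 and 1499 without shared barcodes, and 2432 to 3341 lower without a library. For SYCE3-high over POU5F1-high (2 and 0; 5434 and 5157), 4 were higher with POU5F1 as the top 30%, 1 without shared barcodes, 5 with total UMIs, and 2 to 4 without a library. Lower were 2 with no filter, 2 with POU5F1 as the top 10%, 2 at 3 to 15% mitochondrial, 1 with SYCE3 as the top 3% or 12%, 3 without shared barcodes, and 0 to 2 without a library. All genes gave 3306 and 3162 thinned, 3092 higher without shared barcodes, and 2834 lower with total UMIs.

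For SYCE3-high over unmarked (5 and 0; 4143 and 4214), 2 were higher without shared barcodes, with 1691 and 1844 of all genes, against 2446 and 2411 thinned. For STRA8-positive over POU5F1-high (2 and 4; 4976 and 4868), 1 was higher with STRA8 at 1 UMI, 1 and 1 thinned, 1 lower with STRA8 at 2 per 10000 and 1 lower with total UMIs, and 1 to 2 higher and 2 to 5 lower without a library. All genes gave 3104 higher with STRA8 at 2 per 10000, 3080 and 2990 thinned, and 8195 and 2372 with total UMIs.

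SQLE and MVD kept their calls in SYCE3-high over unmarked barcodes in all 21 alternatives. The SYCE3-high sums rest on 32 to 63 barcodes and as few as 4 UMIs of a gene, and shared barcodes or the top 3% leave 1 library in that state, assumed to vary like the other sums. The states were paired by library, since each library holds all 4, and the library block in the fit was that paired analysis. The labels give no replicate numbers. Over all germ barcodes, none of the 7 genes passed the rule of a 2-fold difference between libraries under any of 6 alternatives. In the main setting HMGCS1, MVD and DHCR7 were under 20 CPM in every library and could not pass it. Of the recomputed ratios, 102 stayed within their counting interval while 24 moved past it.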
